A study of Mus musculus with 38 samples.

Results

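Voltage-gated and potassium channel genes were followed in oligodendrocyte precursor cells (OPCs) of mice with and without a deletion in Bmal1, across the day. The set held the protein-coding genes of the deposited table whose symbol begins with Kcn (potassium channels and their partners), or is Scn with a number and the letter a or b (voltage-gated sodium channels), or begins with Cacna or Cacnb and a number (voltage-gated calcium channels). The rule found 126 of the 54532 genes in the table, and 115 of them passed the filter on low counts that 22798 genes passed in all. The 11 that did not pass were Kcne1, Kcne3, Kcnmb3, Kcnj1, Kcnj15, Kcnk15, Kcnk16, Kcnk18, Kcna10, Kcnv2 and Scn10a.

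OPCs are dividing glia that give rise to the myelinating oligodendrocytes. They carry voltage-gated ion channels and receive synapses, although they rarely fire full action potentials. Potassium channels set the resting potential and shape repolarisation, sodium channels carry the fast inward current of depolarisation, and calcium channels couple depolarisation to calcium entry. Each pore-forming subunit assembles with auxiliary subunits that change its gating or its delivery to the membrane.

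Cells came from the forebrain at postnatal days 6 to 7 and were isolated by immunopanning, with plates that remove microglia and endothelial cells followed by a plate that retains cells bearing PDGFRA. All mice carried floxed Bmal1 alleles, so the Cre-negative controls (WT) differ from the Cre carriers (KO) by the NG2::Cre transgene, and in KO the Cre-driven deletion removes the DNA-binding domain of BMAL1, a transcription factor of the circadian clock. NG2 is also made by pericytes, so Cre expression from this promoter need not be limited to OPCs. Each library pooled 2 mice, with both sexes used. Time is given as zeitgeber time (ZT), with lights on at ZT0 and off at ZT12, and from ZT0 to ZT18 in steps of 6 hours WT had 4, 5, 6 and 4 libraries while KO had 4, 7, 4 and 4.

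The 38 libraries held 19376094 to 39007229 counts each. Arntl, the gene of BMAL1, ranged from 19.3 to 33.2 CPM (counts scaled to the TMM-adjusted size of each library) over the WT libraries and from 17.7 to 23.4 over the KO libraries, with a log2 fold change of -0.17 (edgeR adjusted p = 0.183). Counts of the whole gene include exons that remain after the deletion, so they do not check the genotype. All 17 OPC markers passed the filter, with median sums of 16045 to 19812 CPM by group, Pdgfra at 4065 CPM and Olig1 at 2021. Markers of other cells were present too: 18 microglial markers had median sums of 7649 to 13401 CPM, and 18 neuronal markers 781 to 1319. In 8 libraries ribosomal RNA took 0.0848% to 0.263% of counts, against 0.409% to 1.34% in the other 30. These low-rRNA libraries were replicates 4, 5 and 6 of WT ZT12, replicate 7 of KO ZT6 and all 4 of KO ZT18, so at ZT18 genotype and this library class cannot be told apart.

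The first question was which channel genes have RNA in these libraries and at what level. The libraries also hold RNA of other cells, so the levels and family sums cannot be assigned to OPCs alone. Levels are compared between genes only as CPM per kilobase of the deposited gene length. The median over the 38 libraries was at or above 1 CPM per kilobase for 69 of the 126 genes, at or above 5 for 31, at or above 10 for 14 and at or above 20 for 4. Kcnip3, a calcium-binding partner of Kv4 channels that also acts as the transcriptional repressor DREAM, was highest at 85.5 CPM per kilobase, with a range of 64.3 to 131. Next came Kcnj10 (Kir4.1, the main inward rectifier of glia) at 42.1 and the Kv4 pore genes Kcnd2 at 40.0 and Kcnd3 at 24.2, which carry the A-type potassium current. The ranges of Kcnj10 (32.8 to 51.2) and Kcnd2 (30.6 to 54.1) overlapped almost wholly, while Kcnip3 lay above both in every library.

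The next levels were held by several families. The two-pore-domain channels, which carry background potassium current, had Kcnk6 at 18.5, Kcnk1 at 13.3, Kcnk2 (TREK-1) at 13.1 and Kcnk12 at 10.8 CPM per kilobase. Among Kv1 (Shaker) genes Kcna6 led with 14.6, but 39.6% of its exon bases are shared with the antisense gene Gm26673, and counts of the pair cannot be separated without the strand. The highest sodium channel gene was the beta subunit Scn3b at 15.6, and the highest sodium pore gene was Scn3a at 10.2, followed by Scn8a at 6.99. Among calcium channels the beta subunit Cacnb3 stood at 13.7 and the L-type pore gene Cacna1d (Cav1.3) at 10.9, followed by Cacna1a (the P/Q-type pore) at 9.75 and Cacna1c at 6.54. Kcnj16, the partner of Kcnj10 in heteromeric channels, was at 13.0.

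**Figure D1:**
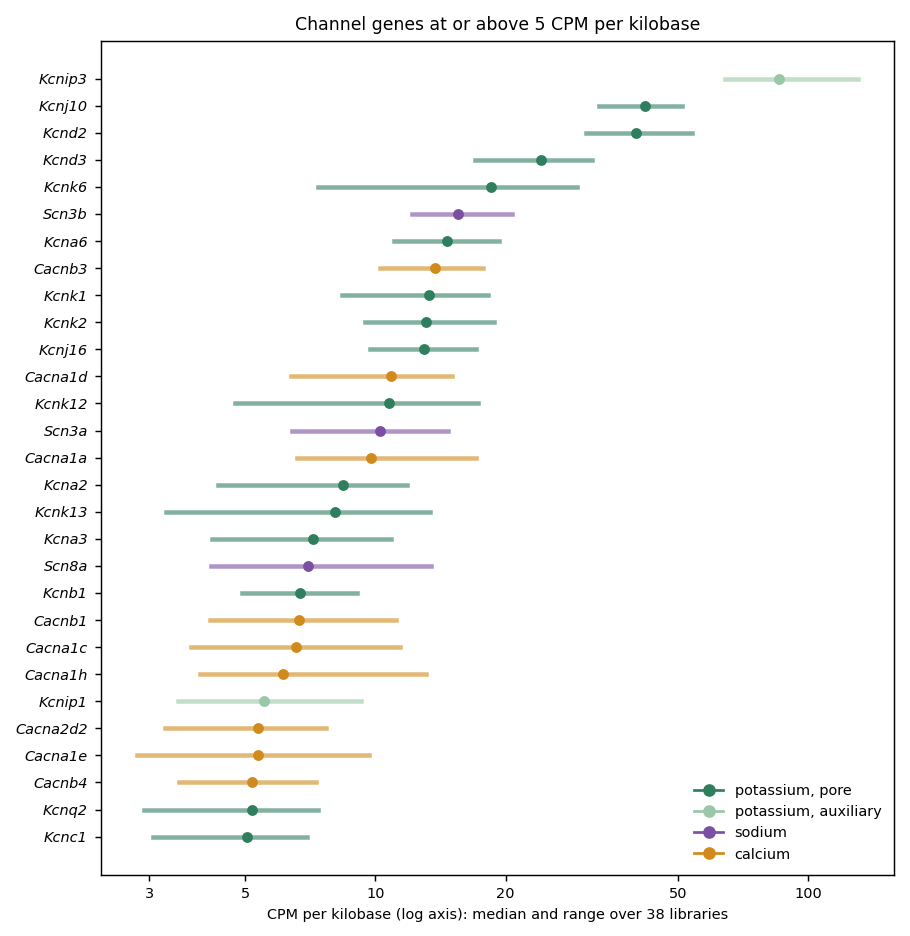
Median (point) and range (line) of CPM per kilobase over the 38 libraries, on a log axis, for 29 of the 31 channel genes with a median of at least 5, coloured by channel class. Kcnip3 lies apart at the top, with Kcnj10 and Kcnd2 next and overlapping each other.

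Summed by family, the auxiliary potassium channel subunits took 21.0% of the summed level of all 126 genes, with a median of 117 CPM per kilobase. The median of Kcnip3 made up 75.3% of the sum of the medians of the genes in that family. The two-pore-domain channels followed at 72.8, the Kv4 genes at 68.8 and the inward rectifiers at 65.1, where Kcnj10 made up 66.0% by the same measure. The Kv1 genes summed to 34.6, the sodium pore genes to 26.9, the calcium beta subunits to 26.8 and the sodium beta subunits to 23.6. The pore genes of P/Q-, N- and R-type calcium channels summed to 20.1, those of L-type channels to 17.7 and those of T-type channels to 11.6. Kv3 (Shaw) genes stood at 15.8, calcium- and sodium-activated potassium channels at 12.5, the EAG, ERG and ELK genes at 11.9, the alpha2delta calcium subunits at 11.4, Kv7 (KCNQ) genes at 10.8, Kv2 (Shab) genes at 7.49 and the modifier subunits Kv5 to Kv9 at 4.59.

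Across the 8 groups the family sums moved to differing degrees. The ratio of the highest to the lowest group mean was 1.14 for the inward rectifiers, 1.09 for alpha2delta and 1.31 for the two-pore-domain genes. The widest ratio among families of several genes was 1.78, for the Kv5 to Kv9 modifiers, from a mean of 3.71 CPM per kilobase in WT ZT6 to 6.61 in KO ZT18. The auxiliary potassium subunits had a ratio of 1.44, lowest in KO ZT12 and highest in KO ZT0. For 3 families of large pore-forming genes the highest mean was in WT ZT0 and the lowest in KO ZT18, with ratios of 1.53 for sodium pores, 1.59 for P/Q-, N- and R-type pores and 1.49 for L-type pores. The sodium pore sum was 31.5 ± 5.95 CPM per kilobase (SD, n = 4) in WT ZT0 and 20.6 ± 2.31 (SD, n = 4) in KO ZT18. In KO ZT18 the 4 libraries read 22.7, 18.8, 22.6 and 18.4, all below the 4 WT ZT18 libraries at 25.8, 26.9, 31.4 and 28.7. Low values were not limited to KO: in WT ZT12 the 3 low-rRNA libraries read 26.7, 22.4 and 21.8, below the other 3 of that group at 29.4, 28.1 and 31.0. No test was made on these sums. In bulk RNA, fewer cells of a type and less RNA per cell cannot be told apart.

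**Figure D2:**
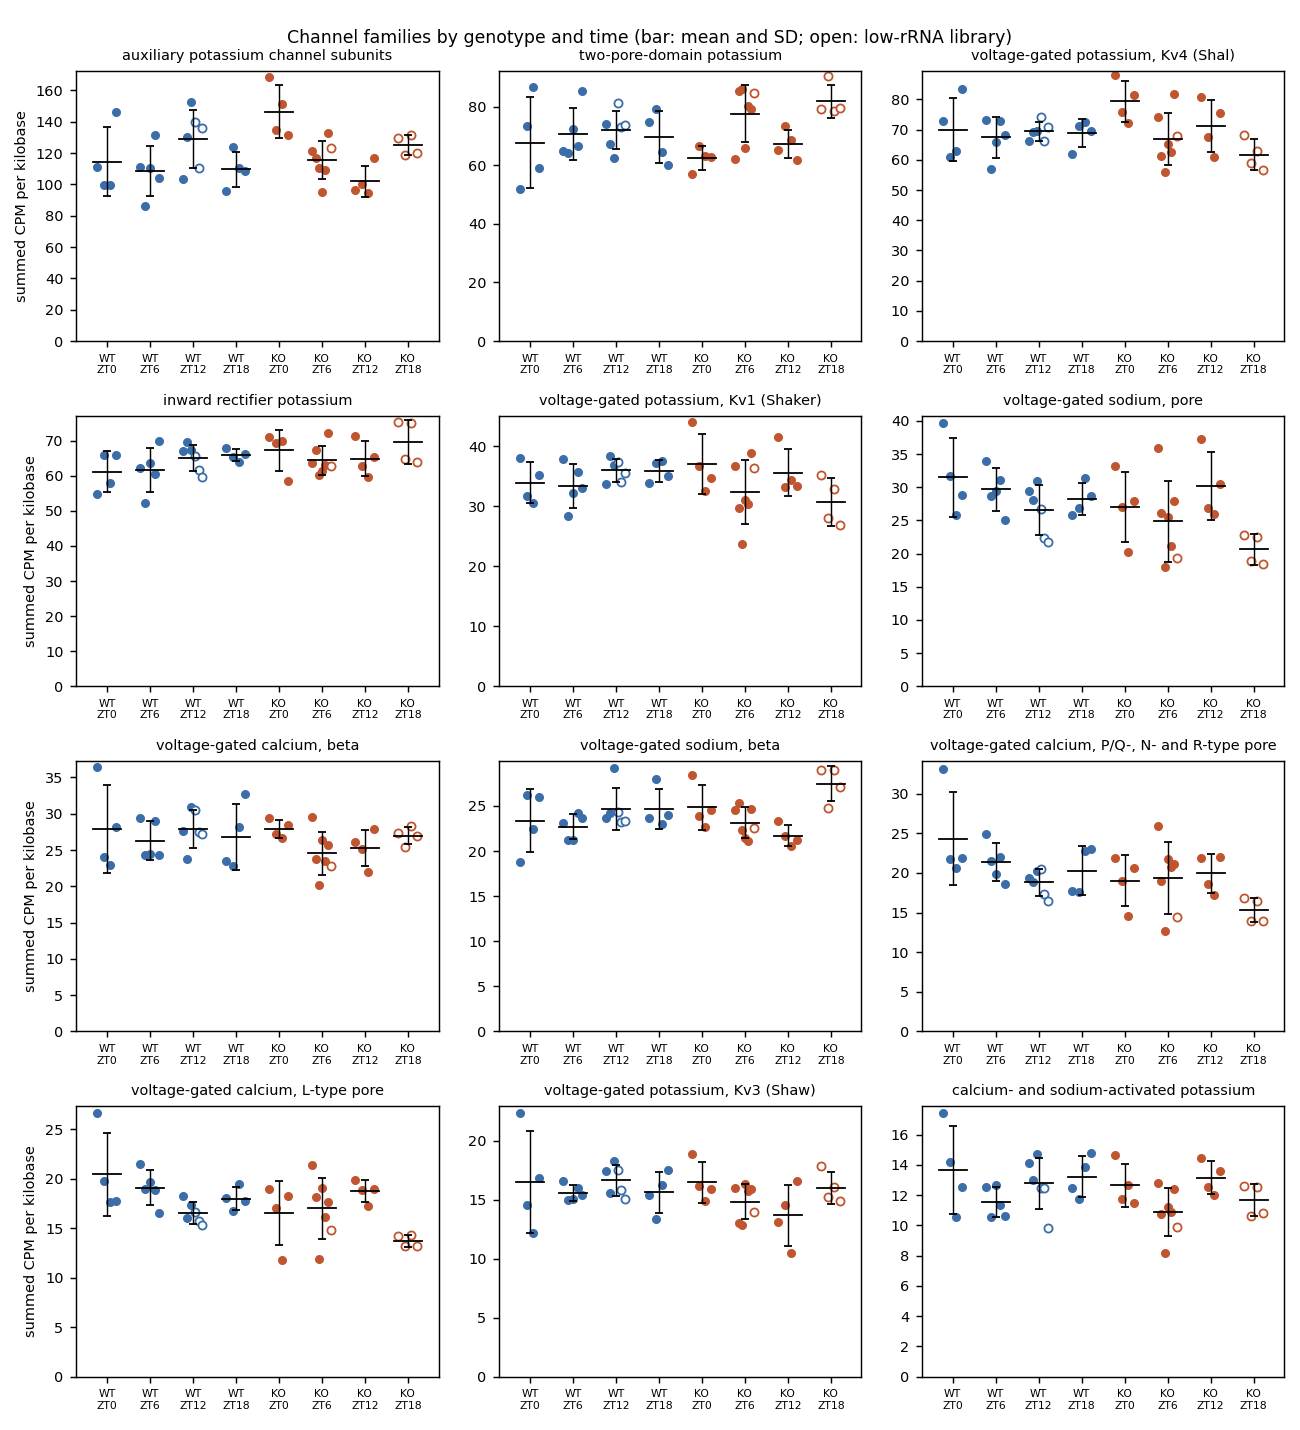
Summed CPM per kilobase of the 12 channel families with the highest sums, per library (points), with the group mean and SD (black), WT in blue and KO in orange, and low-rRNA libraries as open points. At ZT18, where all KO libraries are low-rRNA, the sodium, L-type and P/Q-, N- and R-type pore sums of KO lie below those of WT. Groups lie apart in other families too, such as the auxiliary potassium subunits in KO ZT0 (131 to 169) and KO ZT12 (94.5 to 117).

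KO was then compared with WT over all times, as the equal-weight mean of the 4 within-time differences. No channel gene passed an adjusted p under 0.05 in edgeR's quasi-likelihood test, where 21 of all genes did (0.0921%). At an unadjusted p under 0.05 there were 17 of 115 (14.8%), close to the 15.1% of all genes, with 4 higher and 13 lower in KO (7.42% and 7.69% of all genes). By DESeq2 and limma-voom no channel gene passed either. The median log2 fold change was -0.02, the same as over all genes tested.

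The smallest p over all times belonged to the calcium pore genes Cacna1d and Cacna1a. On the log2 scale KO minus WT was -0.20 for Cacna1d (SE 0.060, edgeR adjusted p = 0.126) and -0.24 for Cacna1a (SE 0.075, 0.128). Without replicate 4 of WT ZT0, Cacna1d passed at -0.22 (adjusted p = 0.0387), as 2.69% of all genes did. Both were lowest in KO ZT18, where Cacna1d read 106, 107, 105 and 102 CPM against 147, 138, 150 and 126 in WT ZT18. Those groups do not overlap, but the difference at that time did not pass (log2 fold change -0.41, adjusted p = 0.0707).

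At ZT0 no channel gene passed in edgeR, against 0.285% of all genes, and 12 had an unadjusted p under 0.05 (18.4% of all genes did). DESeq2 called 1, Cacna1d, and limma-voom none. Cacna1d read 190, 166, 153 and 132 CPM in WT and 138, 128, 80.7 and 137 in KO, and the log2 difference was -0.41 (SE 0.128, edgeR adjusted p = 0.0878). The third KO library was the lowest, and the groups overlap. Kcnk2, the mechanosensitive two-pore channel TREK-1, read 49.0, 62.0, 58.0 and 78.7 in WT and 92.9, 73.7, 77.2 and 70.4 in KO (log2 fold change 0.34, SE 0.119, adjusted p = 0.114), and 12.2% of its exon bases are shared with the antisense gene A430027H14Rik. The count at ZT0 rested on 1 library: without replicate 4 of WT ZT0, 7 channel genes passed, 4 higher and 3 lower, where 9.37% of all genes did, among them Cacna1d at -0.49 (adjusted p = 0.0168) and Kcnk2 at 0.47 (adjusted p = 0.0102).

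At ZT6, where the groups were largest, no channel gene passed in edgeR, DESeq2 or limma-voom (0.0132% of all genes in edgeR). Only Kcnj2 had an unadjusted p under 0.05, 1 of 115 against 4.39% of all genes, or 2.11% counting those lower in KO. Kcnj2 (Kir2.1), a strong inward rectifier, differed by -0.51 on the log2 scale (SE 0.220, edgeR adjusted p = 0.974). The next gene by p was Kcnj4 (Kir2.3), at 1.10 on the log2 scale with an adjusted p of 0.974.

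At ZT12 channel genes were called in 1 direction: 2 of 115 were lower in KO, Kcnab3 among them, where 5.00% of all genes were called and 3.69% were called lower. At an unadjusted p under 0.05 there were 17, of which 2 were higher and 15 lower in KO (7.79% and 12.3% of all genes).

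Kcnab3 encodes a cytoplasmic beta subunit of Kv1 channels (chromosome 11, 69326258 to 69333042, GRCm38), and 5.13% of its exon bases are shared with the antisense gene Kcnab3os. It ranged from 9.97 to 16.1 CPM in WT ZT12, with a median of 12.4, and read 7.13, 8.05, 6.25 and 9.51 in KO. The groups do not overlap, and the log2 fold change was -0.70 (SE 0.163, adjusted p = 0.00992). Without replicate 1 or replicate 3 of KO ZT12 the call on Kcnab3 was lost. With all 8 low-rRNA libraries left out the difference in Kcnab3 was -0.73 but did not pass (adjusted p = 0.188), no channel gene did, and 0.00435% of all genes were then called. With that class as a term no channel gene passed either, with Kcnab3 at -0.68 (adjusted p = 0.0740), where 0.342% of all genes were called.

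Several channel genes did not pass at ZT12. Scn2b, which links sodium channels to the cell surface and matrix, stood at -0.51 on the log2 scale (adjusted p = 0.118), and Scn4b, at 0 counts in KO ZT12 replicates 1 and 3, had an adjusted p of 0.104. Scn3b, the most abundant sodium channel gene, stood at 0.04 (SE 0.110). The sodium, L-type and P/Q-, N- and R-type pore genes had mostly positive differences at this time, with 6 of 9, 3 of 4 and 2 of 3 log2 fold changes above 0 and none called.

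At ZT18 the 2 calls were both higher in KO, Kcnab2 among them, where 2.14% of all genes were called and 1.39% were called higher. At an unadjusted p under 0.05 there were 20 of 115 (18.2% of all genes), 8 higher and 12 lower (9.61% and 8.57%). Kcnab2 encodes the Kv1 beta2 subunit, which promotes surface delivery and axonal targeting of Kv1 channels (chromosome 4, 152390742 to 152477871, GRCm38). It read 16.5, 16.7, 18.3 and 17.5 CPM in WT and 29.1, 27.2, 26.6 and 25.8 in KO. No library of the 2 groups overlapped, and the log2 fold change was 0.66 (SE 0.131, adjusted p = 0.0109, edgeR).

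All KO libraries at ZT18 are low-rRNA libraries, and Kcnab2 can be read where the class also occurs. It read 27.0 CPM in the low-rRNA library of KO ZT6 against 18.6 to 21.3 in the other 6, and averaged 23.5 in the 3 of WT ZT12 against 21.2 in the other 3. In WT ZT12, replicate 2, not a low-rRNA library, read 18.4, and the rest of that group read 22.4 to 24.5 in both classes. With the class as a term the log2 fold change of Kcnab2 was 0.40 (adjusted p = 0.681), and 0.00877% of all genes were called.

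**Figure D3:**
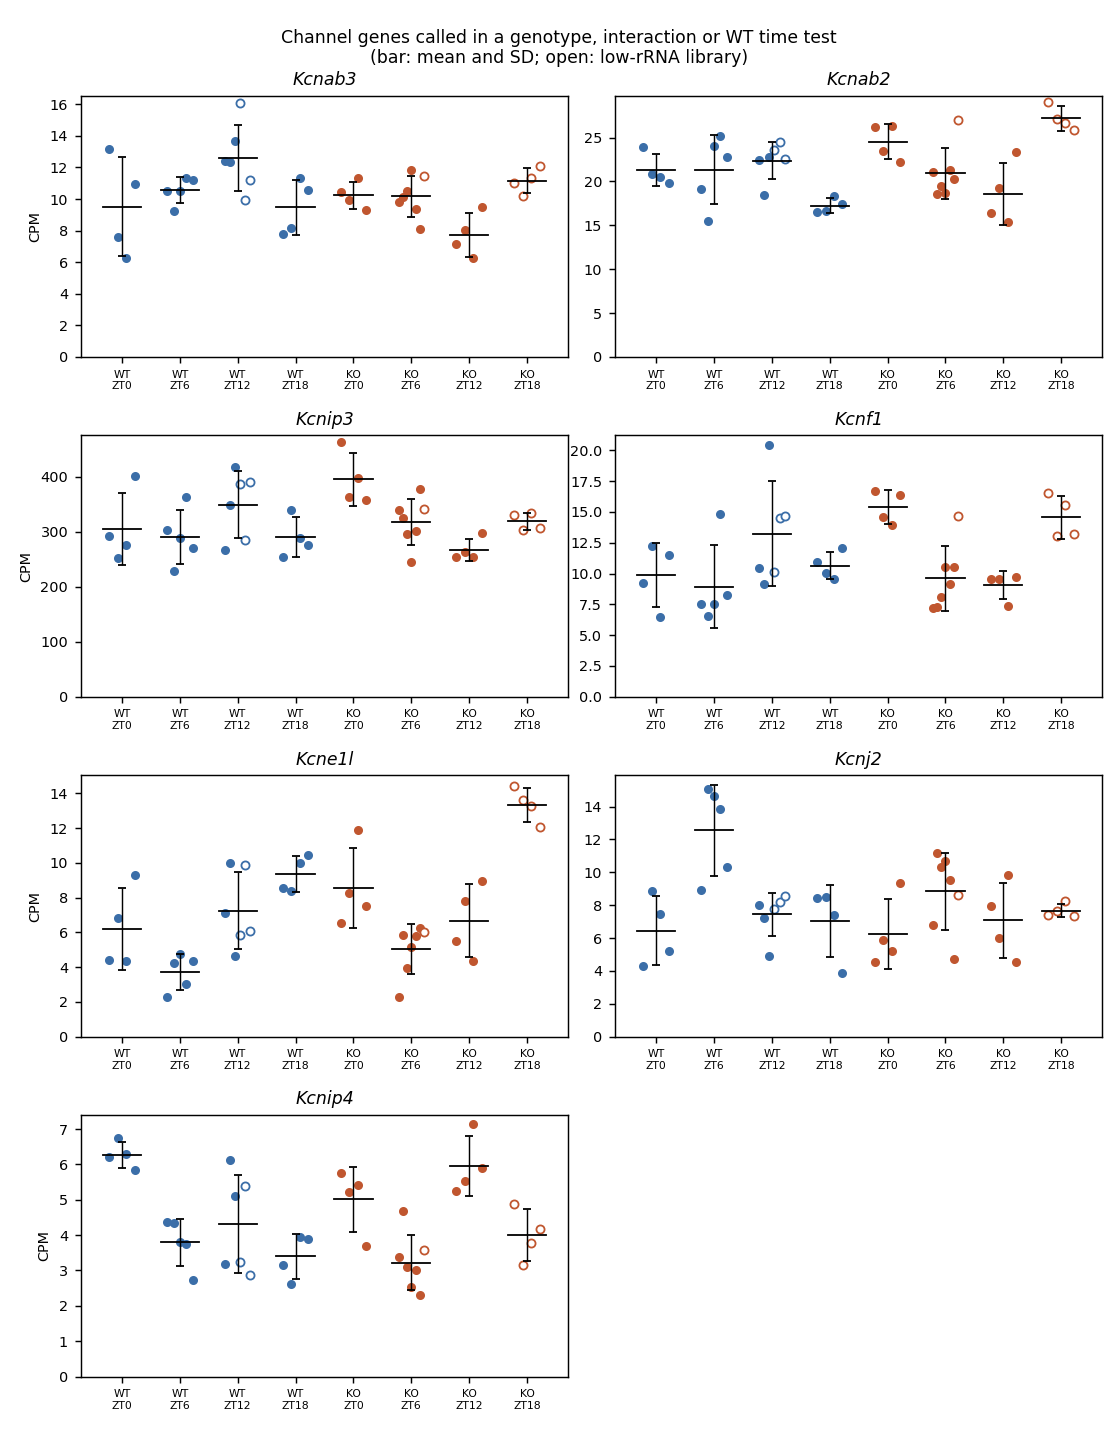
CPM per library of 7 channel genes called in a genotype, genotype-by-time or WT time test, with group means and SD (black) and low-rRNA libraries as open points. Kcnab2 separates KO from WT at ZT18, where genotype and the low-rRNA class cannot be told apart. Kcnab3 separates the genotypes at ZT12, and Kcnj2 is highest in WT ZT6.

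Groups that do not overlap were common at ZT18 for all genes: 18.5% of genes, and 24 of the 115 channel genes (20.9%), had every KO library on 1 side of every WT library. KO lay above for 13 of them and below for 11, where 10.4% and 8.18% of all genes did. The 11 below were the sodium pores Scn1a, Scn3a and Scn8a, the calcium pores Cacna1a, Cacna1d and Cacna1e, the potassium pores Kcna2, Kcnh5, Kcnk7 and Kcnt2, and the calcium beta subunit Cacnb4. The 13 above included the accessory subunits Kcnab2, Kcnip2, Kcne1l, Kcne4 and Scn4b, the modifiers Kcnf1 and Kcng4, and the potassium pores Kcna5, Kcnc4, Kcnj4, Kcnk5 and Kcnk12. At ZT0 there were 3 such channel genes (5.24% of all genes), Kcnf1 above in KO (2.60%) and Cacna1a and Kcnip4 below (2.64%). There were none at ZT6 (0.276%), and at ZT12 there were 2, both below and Kcnab3 among them (5.27%, of which 3.15% below).

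No large pore gene passed at ZT18 in edgeR, although most had lower values in KO. Log2 fold changes were below 0 for 8 of 9 sodium pores, all 3 P/Q-, N- and R-type pores and all 4 L-type pores, with family medians of -0.26, -0.40 and -0.23 beside 0.00 for all genes tested. Scn3a, a sodium channel typical of immature cells, stood at -0.45 (SE 0.159, adjusted p = 0.108), Scn8a at -0.59 (adjusted p = 0.142) and Scn1a at -0.54 (adjusted p = 0.144). Cacna1e, the R-type pore, stood at -0.52 (adjusted p = 0.152) and Cacna1a at -0.40 (adjusted p = 0.160). DESeq2 called Cacna1d, Scn3a and Kcnt2, a sodium-activated potassium channel, as lower.

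**Figure D4:**
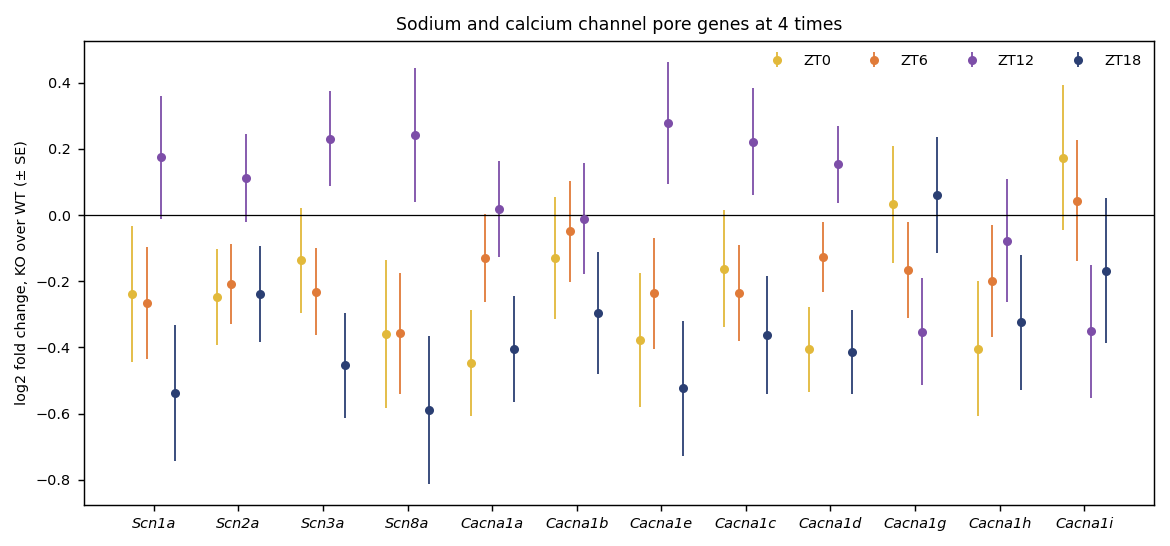
Log2 fold change of KO over WT (± SE, edgeR) at each of the 4 times for 12 pore-forming sodium and calcium channel genes. At ZT18 11 of the 12 lie below 0, while at ZT12 the sodium and L-type genes shown lie above 0.

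These genes are long, and over the whole transcriptome the difference moved with gene length. Among the 4701 protein-coding genes tested with over 6 kb of exon, the median log2 fold change at ZT18 was -0.05, against 0.22 in the 2343 under 2 kb. In the 45 channel genes over 6 kb it was -0.19 with 12 above 0. In the 28 channel genes of 2 to 4 kb it was 0.41 with 21 above 0, beside 0.13 over protein-coding genes of that length. At 4 to 6 kb it was 0.07 in channel genes and 0.06 over protein-coding genes. The 9 channel genes under 2 kb had a median of 0.41. At ZT12 the order over protein-coding genes was reversed, with medians of 0.05 above 6 kb, -0.06 at 4 to 6 kb, -0.12 at 2 to 4 kb and -0.17 under 2 kb. Over channel genes they were 0.06, -0.20, -0.32 and -0.12 in the same order, so not ordered by length throughout. Kcnab3 has 2865 bases of exon and Kcnab2 has 5578. The bands were chosen after the data were seen, and the part of gene length in the channel genes' differences was not tested.

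Markers of other cells also differed between KO and WT at ZT18, where genotype and the low-rRNA class cannot be told apart. Of all genes tested, 2.14% were called at that time and 49.6% had log2 fold changes above 0. All 10 markers of maturing oligodendrocytes had log2 fold changes above 0, 4 of them called, with sums of 687 to 878 CPM in KO against 433 to 485 in WT. Log2 fold changes were above 0 for 17 of 18 neuronal markers (1 called), with sums of 1185 to 1386 against 681 to 1438, and, with none called, for all 18 microglial, all 11 endothelial and all 7 red blood cell markers and 8 of 9 mural markers. For choroid plexus markers they were above 0 for 7 of 10, with none called and a median of 1.18, while astrocyte and OPC markers had 3 of 10 and 6 of 17 above 0. The red blood cell sums were 4651 to 7812 against 3091 to 3516. At ZT12, where Kcnab3 was lower, log2 fold changes were below 0 for 12 of 18 neuronal and 9 of 10 maturing oligodendrocyte markers, with none called, for 12 of 17 OPC markers, 4 of them called lower, and for 8 of 9 mural markers, 1 called lower. Over all genes tested at ZT12, 49.1% of log2 fold changes were above 0 and 3.69% of genes were called lower. The mural list had a median log2 fold change of -0.72, with sums of 98.4 to 208 CPM in KO ZT12 against 108 to 358 in WT ZT12. Their part in the channel results was not tested.

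The genotype-by-time test asks whether the difference between KO and WT changes among the 4 times. It called 5 of 115 channel genes, where 9.19% of all genes were called, among them Kcnab2 (adjusted p = 0.00427), Kcnab3 (0.0249), Kcnip3 (0.0353) and Kcnf1 (0.0413). At an unadjusted p under 0.05 there were 21, against 24.7% of all genes. Each of these 4 had a log2 fold change below 0 at ZT12 and above 0 at ZT18. Kcnip3 stood at 0.37, 0.13, -0.39 and 0.14 at ZT0, ZT6, ZT12 and ZT18. Kcnf1, a silent Kv5.1 subunit that modifies Kv2 channels, stood at 0.64, 0.11, -0.55 and 0.45.

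Kcnip3 in WT ZT0 read 292, 252, 275 and 401 CPM and in KO ZT0 463, 363, 397 and 359. In WT ZT12 it ranged from 266 to 418 with a median of 368, while KO ZT12 read 254, 262, 254 and 297. The groups overlap at both times, and KO tended high at the first and low at the second. For Kcnf1 at ZT0 the groups do not overlap, at 9.23, 12.3, 6.46 and 11.5 CPM in WT and 16.7, 14.6, 13.9 and 16.4 in KO, without a call (adjusted p = 0.131). The calls on Kcnip3 and Kcnf1 were lost with RLE scaling (adjusted p = 0.0554 and 0.0555), and without any 1 of 11 and 18 of the 38 libraries. That on Kcnab3 was lost without replicate 4 of WT ZT12 or replicate 1 or 3 of KO ZT12. Leaving out the low-rRNA libraries removes KO ZT18, so that fit covers only ZT0, ZT6 and ZT12 and cannot test a change at ZT18. In that fit, and with the class as a term, none of the 5 passed. Adjusted p ran from 0.197 to 0.517 for the 4 named genes, and 0% and 0.189% of all genes were called.

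In WT alone, 3 of 115 channel genes were called for time of day, where 4.91% of all genes were, and 16 had an unadjusted p under 0.05 (17.5% of all genes). Each of the 3 peaked at a different time. Kcne1l (KCNE5, an accessory subunit that restrains Kv7.1 channels) was highest at ZT18, at 8.57, 8.38, 10.003 and 10.4 CPM, and lowest at ZT6, at 2.30, 4.22, 4.74, 3.03 and 4.34. These groups do not overlap, and the ratio of means was 2.51 (adjusted p = 0.00807, edgeR). Kcnj2 was highest at ZT6, at 8.91, 15.04, 14.6, 13.9 and 10.3 CPM, and lowest at ZT0, at 4.27, 8.86, 7.48 and 5.18, a ratio of 1.95 (adjusted p = 0.0281). Every ZT6 library exceeded every ZT0 library. Kcnip4, another Kv4 partner, was highest at ZT0 with 6.21, 6.75, 6.28 and 5.83 CPM, and at ZT18 read 3.15, 2.60, 3.96 and 3.88 (ratio 1.85, adjusted p = 0.0493).

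Kcne1l kept its call without the low-rRNA libraries (adjusted p = 0.0298), where 3.15% of all genes were called. Kcnj2 (adjusted p = 0.0818) and Kcnip4 (0.0750) did not. With the class as a term Kcne1l (adjusted p = 0.0115) and Kcnj2 (0.0328) passed, and Kcnip4 (0.0646) did not. The call on Kcnj2 was also lost without replicate 1 of WT ZT0 or without replicate 2, 3 or 4 of WT ZT6, and that on Kcnip4 without any 1 of 27 libraries. Kcne1l and Kcnip4 were called for time in KO too, with Kcne1l highest at ZT18 and lowest at ZT6 in both genotypes. Kcnj2 was not called in KO (adjusted p = 0.375), where ZT6 ranged from 4.70 to 11.2 CPM with a median of 9.52. The difference between genotypes in the time course was not called for Kcnj2 (genotype-by-time adjusted p = 0.527) or Kcne1l (0.530).

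Markers of other cells also moved with time of day in WT. Those called were 7 of 10 astrocyte, 5 of 7 red blood cell and 3 of 18 neuronal markers, against 4.91% of all genes. The astrocyte sums were 679 to 1193 CPM at ZT6 and 1217 to 1847 at ZT18, and the red blood cell sums 1326 to 2626 and 3091 to 3516, the times at which Kcne1l was lowest and highest. In KO the time test called 14 of 18 neuronal, 13 of 18 microglial and 8 of 10 astrocyte markers. It also called all 7 red blood cell markers and 7 of 17 OPC markers, where 21.9% of all genes were called. Their part in the channel results was not tested.

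BMAL1 binds DNA as a dimer at the E-box CACGTG, so promoter windows are shown for the 2 genes with the smallest p for time of day in WT. Windows run from 250 bases before to 50 after a start site of RefSeq (GRCm38.p6), 300 bases in all, 5′ to 3′ on the gene's strand, and capitals mark a searched motif. The Kcnj2 window (chr11:111065914-111066213, plus strand) holds 1 E-box at position 167, and the Kcne1l window (chrX:142306149-142306448, minus strand) holds no searched motif.
Kcnj2: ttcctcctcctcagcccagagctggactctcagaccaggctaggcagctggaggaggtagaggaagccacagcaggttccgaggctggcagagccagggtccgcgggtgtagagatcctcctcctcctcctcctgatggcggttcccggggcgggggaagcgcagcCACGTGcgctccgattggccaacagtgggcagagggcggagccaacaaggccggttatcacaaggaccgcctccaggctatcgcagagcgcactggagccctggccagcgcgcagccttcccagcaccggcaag
Kcne1l: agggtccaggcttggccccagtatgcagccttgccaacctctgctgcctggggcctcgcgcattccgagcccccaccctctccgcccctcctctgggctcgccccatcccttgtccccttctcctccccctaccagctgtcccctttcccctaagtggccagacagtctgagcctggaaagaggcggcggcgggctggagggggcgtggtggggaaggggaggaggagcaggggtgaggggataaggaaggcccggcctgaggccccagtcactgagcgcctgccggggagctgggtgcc
RefSeq windows matched 93 of the 126 genes, with 128 windows. CACGTG stood in 7 of them (5.47%), against 7.15% of 32851 promoters of the same length, and the related CACGTT, searched on both strands, in 4 (3.13%, against 4.68%). TTATGTAA (the D-box) stood in 1, TAGGTCA (the ROR core) in 1 and TGACGTCA (the CRE) in none, against 0.938%, 2.61% and 1.79% of all promoters. The windows of Kcnab2, Kcnip3 and Kcnf1 nearest their annotated starts hold none of the 5 motifs. A match describes letters and not a bound site.

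In KO alone 26 of 115 channel genes were called for time of day, where 21.9% of all genes were, and 42 had an unadjusted p under 0.05 (36.3% of all genes). The share of 26 in 115 is close to that background. The highest group was KO ZT18 for 13 of the 26, KO ZT0 for 7 and KO ZT12 for 6, and the lowest was KO ZT12 for 11. Kcne1l read 14.4, 13.6, 13.3 and 12.1 CPM at ZT18 and 2.26 to 6.24 with a median of 5.80 at ZT6 (ratio 2.65, adjusted p = 0.000700).

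Several of the other called genes were high at ZT18. Kcnh3 (an ELK channel) averaged 4.37 CPM at ZT18 and 0.675 at ZT6 (adjusted p = 0.00431), and Scn4b, the beta subunit linked to resurgent current, read 1.22, 1.69, 2.19 and 0.763 at ZT18 against 0, 0.220, 0 and 0.0823 at ZT12 (adjusted p = 0.0170). The halothane-inhibited two-pore channels Kcnk12 and Kcnk13 averaged 26.7 and 31.1 CPM at ZT18 and 14.1 and 16.2 at ZT0. Kcnk13 (THIK-1) is best known as a channel of microglia, and the 18 microglial markers had sums of 11453 to 15895 CPM in KO ZT18 and 4375 to 8711 in KO ZT0. Kcnj8 (Kir6.1), the potassium channel pore that marks pericytes, averaged 8.12 CPM at ZT18 and 1.76 at ZT12 (adjusted p = 0.0321), while the 9 mural markers summed to 233 to 354 CPM and 98.4 to 208. The part of these cells in the results was not tested.

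Other called genes were low at ZT18 or high elsewhere. Cacnb4 (a calcium channel beta subunit, with 16.0% of its exon bases shared with A430018G15Rik on the opposite strand), Kcnt2, Scn3a and Cacna1d had their highest mean in KO ZT12 and their lowest in KO ZT18, with ratios of 1.55, 1.67, 1.51 and 1.36. The Kv4 pore gene Kcnd2 was highest at ZT0 and read 279, 237, 235 and 252 CPM there and 208, 172, 194 and 163 at ZT18 (adjusted p = 0.0233). The Kv4 partners Kcnip1, Kcnip2 and Kcnip3 were also highest at ZT0 and were lowest at ZT12. The Kv4 pore gene Kcnd1 was lowest at ZT0 and highest at ZT18, at 17.7 CPM at ZT0 and 28.9 at ZT18 (adjusted p = 0.0197). Kcnn3 (SK3, a small-conductance calcium-activated channel) averaged 29.6 CPM at ZT12 and 18.2 at ZT6 (adjusted p = 0.00495), and Kcnip4 5.95 and 3.22 at the same times.

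The KO time result changed with the treatment of the low-rRNA libraries. Leaving them out also removes KO ZT18, so a part of the class and a part of that time cannot be told apart. Without these libraries, which leaves ZT0, ZT6 and ZT12, 7 of the 26 passed (8.93% of all genes). Among the 7 were Kcnn3, Kcnip4, Kcnk13, Kcnf1, Kcnd1 and Kcnip3. With the class as a term 12 passed (11.7% of all genes), and Cacnb4, Kcnt2, Scn3a and Cacna1d were not among them (adjusted p from 0.254 to 0.560). Leaving out replicate 1 of KO ZT0, or replicate 3 or 4 of KO ZT18, left 17 calls. The call on Kcnip3 was lost without replicate 1 or 3 of KO ZT0 or of KO ZT12.

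**Figure D5:**
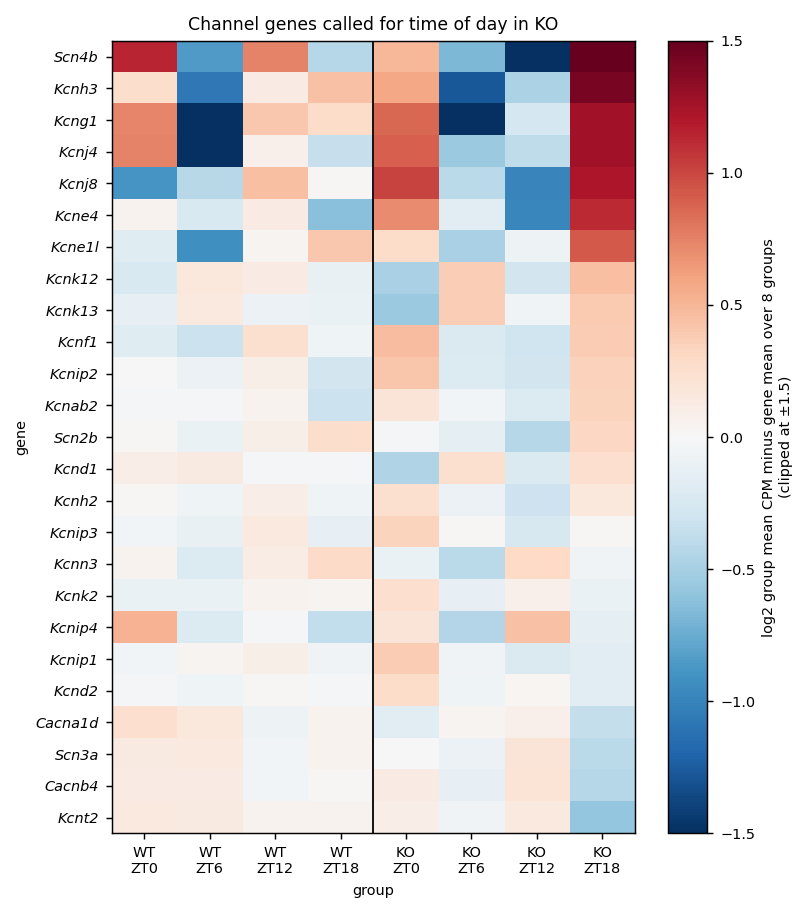
Heat map of 25 of the 26 channel genes called for time of day in KO, with colour giving the log2 group mean CPM minus the gene's mean over the 8 groups (clipped at ±1.5), genes ordered by KO ZT18. The auxiliary subunits Kcne1l and Kcnab2 and the pores Kcnh3, Kcnk12, Kcnk13 and Kcnd1 are high in KO ZT18. Kcnt2, Cacnb4, Scn3a and Cacna1d are low there. Among the KO groups the auxiliary Kcnip1, Kcnip2 and Kcnip3 are highest at ZT0 and Kcnip4 at ZT12.

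Other genes of excitability were read from the same tables in 4 lists: 26 channel partner proteins, 28 other cation channels, 17 cation pumps and exchangers, and 20 chloride channels and cotransporters. Over all times and at ZT6 none was called. At ZT0 Cacng7, a gamma subunit of the TARP group, was higher in KO (log2 fold change 0.52, adjusted p = 0.0464). At ZT12 all calls were lower in KO, as were 3.69% of all genes: 2 of 24 tested partners (Fgf11 and Cacng8), 1 of 28 other cation channels (Hcn2), 3 of 16 pumps and exchangers (Atp1b2 and Slc8a2 among them) and 2 of 19 chloride genes (Slc12a4 and Slc12a5).

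Slc12a5 (KCC2, the neuronal chloride extruder) stood at -0.68 on the log2 scale at ZT12 (adjusted p = 0.0264) and Hcn2, a hyperpolarisation-activated channel, at -0.52 (adjusted p = 0.0331). At ZT18 Calm3 (calmodulin, 0.56, adjusted p = 0.0265) and Orai2 (a store-operated calcium channel, 0.46, adjusted p = 0.0193) were higher and Trpm7, a cation channel with a kinase domain, was lower (-0.43, adjusted p = 0.0400), where 2.14% of all genes were called. All KO ZT18 libraries are low-rRNA libraries, and with that class as a term none of these 3 passed (adjusted p = 0.525 for Calm3, 0.381 for Orai2 and 0.858 for Trpm7). With the term none of the ZT12 calls passed either. The genotype-by-time test called 3, 3, 4 and 1 genes of the 4 lists in the order given (9.19% of all genes), the WT time test 0, 1, 2 and 0 (4.91%), and the KO time test 8, 12, 7 and 5 (21.9%).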

How the data were processed

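The authors deposited 1 table of raw counts per gene for 38 poly-A RNA-seq libraries, aligned to GRCm38 by HISAT2 2.0.5 after fastp and counted by featureCounts 1.5.0-p3, per the submitters' processing notes. The strand setting is not given in the sources used here. Counts were used as deposited. In R 4.3.3, edgeR 4.0.16 (TMM scaling, filterByExpr by group, glmQLFit and glmQLFTest) fitted 1 model over the 8 groups, with Benjamini-Hochberg adjustment over 22798 genes and calls at an adjusted p under 0.05. Time and genotype-by-time tests had 3 degrees of freedom with all libraries, and those that use KO ZT18 had fewer where it was left out. The filtered genes held 99.9% of counts. SE is the absolute log2 fold change over the root of F. Counting error and spread between libraries both enter the p-values.

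The members, families and lists were chosen with earlier results of these data known, as was the low-rRNA class (ribosomal RNA under 0.3% of counts). The names were set by rule: members called in any test (at most the 15 smallest p per test), the 2 highest per family by CPM per kilobase, and the 2 smallest p where none was called. Names beyond this, among them Scn2b, Scn4b, Kcnj8, Kcnd1 and the pore genes plotted, were chosen after their values were seen. Results on some genes are not reported here; counts include them. Alternatives were RLE scaling, no filter on low counts, DESeq2 1.42.0, limma-voom (limma 3.58.1), a replicate block, the low-rRNA libraries left out or as a term, and each library left out in turn. Scripts were tested on simulated data. Every pair of libraries in a group differed by more than counting error (76 pairs, smallest chi-square per degree of freedom 10.4). Exon overlaps were taken from GENCODE annotation of the same build.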

Additional observations from a re-analysis of the deposited data

Results flagged for a closer look

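The difference between KO and WT changed among the 4 times for 5 of 115 channel genes, where 9.19% of all genes were called, by edgeR's genotype-by-time test, among them Kcnab2 (adjusted p = 0.00427), Kcnab3 (0.0249), Kcnip3 (0.0353) and Kcnf1 (0.0413). Kcnab3 was lower in KO in 4 of 4 libraries at ZT12 and Kcnab2 higher in 4 of 4 at ZT18, against every WT library of the same time. Every KO library lay below WT at ZT12 for 3.15% of all genes and 2 of the 115 channel genes. Every KO library lay above WT at ZT18 for 10.4% of all genes and 13 of the 115. None of the 5 genotype-by-time calls passed without the low-rRNA libraries or with their class as a term. The fit without them lacks KO ZT18 and cannot test a change at that time.

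Single libraries stood apart from their group in 5 of 64 sets of gene values and 8 of 152 sets of family sums, by a test of the largest gap that chance alone passes in about 1 set in 20. Kcnab2 read 18.4 CPM in WT ZT12 replicate 2 (others 22.4 to 24.5) and 27.0 in KO ZT6 replicate 7, the low-rRNA library of that group (others 18.6 to 21.3). Kcnf1 read 14.8 CPM in WT ZT6 replicate 4 (others 6.52 to 8.27) and 7.35 in KO ZT12 replicate 3 (others 9.58 to 9.72). Kcnj2 read 4.92 CPM in WT ZT12 replicate 3 (others 7.23 to 8.57).

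Family sums are in CPM per kilobase. In WT ZT12 replicate 3 the sodium beta sum was 29.2 (others 23.2 to 24.3) and the Kv5 to Kv9 modifier sum 8.95 (others 4.18 to 5.59). In WT ZT0 replicate 1 the P/Q-, N- and R-type sum was 33.1 (others 20.6 to 21.9) and the T-type sum 20.4 (others 10.1 to 11.9), and in WT ZT0 replicate 3 the Kv7 sum was 8.34 (others 12.1 to 12.8). The inward rectifier sum was 58.5 in KO ZT0 replicate 4 (others 69.5 to 71.1). The two-pore-domain sum was 90.4 in KO ZT18 replicate 2 (others 78.5 to 79.5). The Kv1 sum was 41.5 in KO ZT12 replicate 1 (others 33.2 to 34.4).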

How the results depend on the processing

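Direction was checked for KO against WT in Cacna1a and Cacna1d over all times, and in Cacna1d and Kcnk2 at ZT0. It was also checked in Kcnj2 and Kcnj4 at ZT6, Kcnab3 at ZT12 and Kcnab2 at ZT18. None of these differences reversed in any alternative run. The time and genotype-by-time tests give no direction to check. Counts of channel genes called stayed within 1.5 times with RLE scaling, without the filter on low counts and with limma-voom, in all 8 tests. DESeq2 called 1 at ZT0 (0 in edgeR), 4 at ZT12 (2) and 5 at ZT18 (2). Without the low-rRNA libraries 0 passed at ZT12, 0 in the genotype-by-time test (5), 1 for WT time (3) and 7 for KO time (26), and ZT18 could not be tested. With their class as a term 0 passed at ZT12, 0 at ZT18, 0 in the genotype-by-time test and 12 for KO time. The cause was not tested.

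Leaving out each library in turn gave 0 to 1 calls over all times, 0 to 7 at ZT0, 0 to 0 at ZT6, 1 to 4 at ZT12, 1 to 3 at ZT18, 2 to 9 for genotype by time, 1 to 4 for WT time and 17 to 28 for KO time. For genotype by time the 9 came without replicate 4 of WT ZT0, 8 without replicate 1 of KO ZT6, and 2 without replicate 1 or 3 of KO ZT12. Without replicate 2 of KO ZT12, 4 passed at ZT12, and without replicate 1 or 3, 1. At ZT18, 1 passed without any 1 of the KO ZT18 libraries or replicate 3 or 4 of WT ZT18. For WT time 1 passed without replicate 2, 3 or 4 of WT ZT6.

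Replicate numbers did not pair the libraries: over 116 same-numbered pairs the correlation of deviations ran from -0.172 to 0.322 (median 0.0198), and 8 of 38 libraries correlated best with their own number. With the replicate block 1 channel gene passed at ZT0 and 8 at ZT18, and the other counts stayed within 1.5 times. The 6 added at ZT18 were Cacna1d, Scn1a, Scn3a, Scn8a, Cacnb4 and Kcnt2, all lower in KO (adjusted p from 0.0298 to 0.0468), and with the block Kcnip3 did not pass for genotype by time (0.0555), Kcnj2 for WT time (0.0512) or Kcng1 for KO time (0.107). Depth limits the rarest genes: Scn4b and Kcng1 had libraries at 0 counts, so their ratios are imprecise.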
